A study of Mus musculus with 6 samples.

Results

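Tnf, its receptor genes Tnfrsf1a and Tnfrsf1b, the NF-κB subunit genes Nfkb1, Nfkb2 and Relb, and the feedback genes Tnfaip3, Nfkbia, Traf1 and Birc3 were followed in whole liver. These 10 genes were chosen by name, as the cytokine, its receptors and listed NF-κB genes, out of 17119 gene symbols in the count table, and all 10 were present and deep enough to be tested. RNA had been sequenced from 6 mouse liver samples after 12 weeks on a high-fat high-cholesterol diet (HFHCD), which brings on a fatty, inflamed liver. The 3 wild-type samples (labelled WT) have the genotype Clec4f-iCre;Cebpb+/+ in the study's design and the 3 heterozygous samples (labelled Hete) Clec4f-iCre;Cebpbfl/+, so that all of them carried iCre and only the heterozygous ones a floxed allele of Cebpb, which encodes C/EBPβ, a transcription factor active in macrophages and in hepatocytes. The per-sample labels of replicates 2 and 3 write the driver as Clec5f-iCre and Clec6f-iCre in both groups, and the design's spelling was followed. Clec4f is expressed by Kupffer cells, macrophages that reside in the liver sinusoids, so the allele was aimed at those cells alone, whereas the RNA came from unsorted tissue. No sex or age is given in the labels, and they do not tie each sample to its own animal, so p-values measure only the spread between these samples. Where livers are named below, these samples are meant, and n counts samples.

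TNF is a cytokine made mainly by activated macrophages, and it signals through receptors on almost every liver cell. Receptor engagement activates the IKK kinases, which mark the inhibitor IκBα for destruction and free NF-κB dimers to enter the nucleus, while a slower branch processes the Nfkb2 product p100 into a partner for RelB. NF-κB then switches on genes that shut the pathway down again, among them those for IκBα (Nfkbia) and A20 (Tnfaip3), as well as its own subunit genes. In whole liver, fewer cells of a type and less RNA per cell cannot be told apart.

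Promoter sequences are shown first for genes of this loop whose start lies next to matches to the κB consensus, the decamer that NF-κB dimers bind (GGG, a purine, a pair of free bases, a pair of pyrimidines, CC, searched on both strands). Capitals mark the matches. For genes with several annotated starts the window with the most matches is shown. Sequences are RefSeq windows of build GRCm38.p6, from which only the 250 bases before the annotated start are used, written 5′ to 3′ along the gene, and the submitters' processing notes name GRCm39 for the counts. The Nfkb2 window is chr19:46304487-46304736, plus strand, the Nfkbia window chr12:55492648-55492897, minus strand, the Tnfaip3 window chr10:19015411-19015660, minus strand, and the Tnf window, which holds no match, chr17:35202008-35202257, minus strand.
Nfkb2: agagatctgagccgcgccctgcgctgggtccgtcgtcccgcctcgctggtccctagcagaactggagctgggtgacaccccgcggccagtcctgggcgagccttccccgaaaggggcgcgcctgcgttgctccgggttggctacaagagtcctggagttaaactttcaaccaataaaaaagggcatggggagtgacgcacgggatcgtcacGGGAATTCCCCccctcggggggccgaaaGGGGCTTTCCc
Nfkbia: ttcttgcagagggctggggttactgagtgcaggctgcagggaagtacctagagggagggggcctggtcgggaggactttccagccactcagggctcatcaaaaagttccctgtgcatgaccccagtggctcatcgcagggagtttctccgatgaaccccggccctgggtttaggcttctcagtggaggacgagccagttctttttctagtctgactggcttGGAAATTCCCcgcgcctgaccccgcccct
Tnfaip3: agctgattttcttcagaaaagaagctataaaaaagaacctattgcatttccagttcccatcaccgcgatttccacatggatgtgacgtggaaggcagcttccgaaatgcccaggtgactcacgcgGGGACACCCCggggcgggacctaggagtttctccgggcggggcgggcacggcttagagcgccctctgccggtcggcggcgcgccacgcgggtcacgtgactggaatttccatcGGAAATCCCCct
Tnf: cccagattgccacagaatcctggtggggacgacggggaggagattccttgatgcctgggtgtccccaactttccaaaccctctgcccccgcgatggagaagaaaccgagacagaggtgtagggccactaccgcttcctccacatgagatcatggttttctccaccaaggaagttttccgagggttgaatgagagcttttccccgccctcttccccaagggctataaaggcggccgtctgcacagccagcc

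In the Nfkb2 window the overlapping decamers GGGAATTCCC and GGAATTCCCC began at bases -39 and -38, counted back from the start, and GGGGCTTTCC at -11. The Nfkbia window held GGAAATTCCC at -29, and the Tnfaip3 window held GGGACACCCC at -125 and GGAAATCCCC at -12. Nfkb2 has 3 annotated windows, and the others held 1 match each, at -236 and -225. Tnfaip3 has 2, and the other held none. Of the 10 genes 8 had a window (all but Nfkb1 and Relb), and 3 of these 8 (37.5%) held a match in at least 1 window, against 10.6% of 10192 tested genes and 8.23% of all 27025 genes counted the same way, and 7.25% of all 32851 windows. Tnfrsf1a, Tnfrsf1b, Traf1 and Birc3 had a window without a match, as Tnf did. A match describes the letters and says nothing of binding in these livers, and the lack of one covers this window only.

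No gene of the 10 passed the threshold of an edgeR quasi-likelihood adjusted p of 0.05, which 0.582% of 12706 tested genes did. limma-voom called 0 of them as well, and only 46 of the 12706 tested genes. In 7 of the 10 (Tnf, Tnfaip3, Nfkb1, Nfkb2, Relb, Traf1 and Birc3) every heterozygous library lay below every wild-type library, a pattern found in that direction in 11.3% of tested genes. The same 7 had an unadjusted edgeR p under 0.05 with lower levels, against 9.0% of tested genes. DESeq2 called 3 of the 10 lower (Tnfaip3, Nfkb2 and Relb), where it called 3.56% of genes lower. The median log2 fold change, heterozygous over wild-type, was -0.63 over the 10 genes (-0.41 without wild-type replicate 1) and 0.0048 over all tested genes. Negative fold changes were found in 9 of the 10 genes and in 49% of all tested genes. These shares describe genes picked by name, and no p-value was attached to the group.

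**Figure D1:**
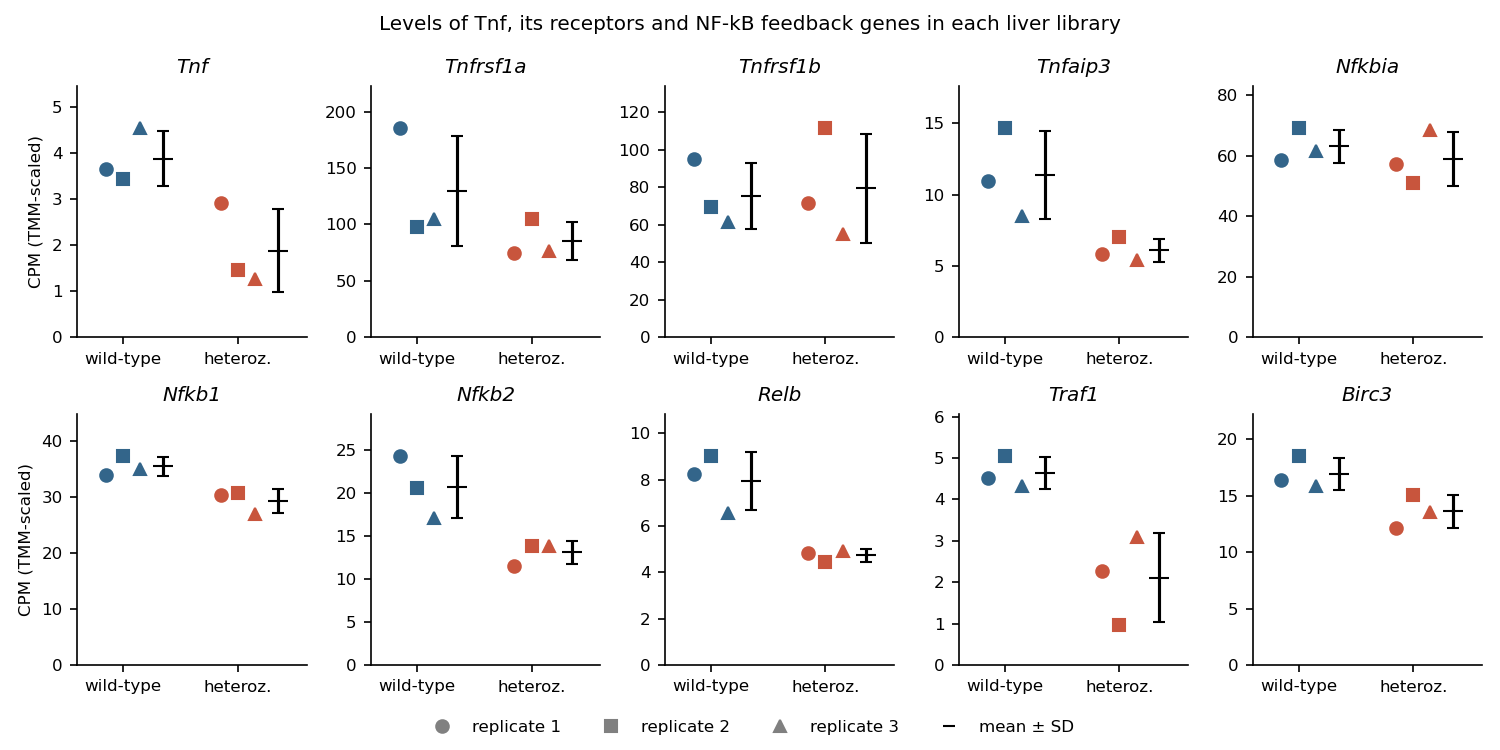
Level of each of the 10 genes in CPM (read counts scaled to library size with TMM, linear axis from 0) in 3 wild-type and 3 heterozygous liver libraries, one symbol per replicate number, with the mean and SD over 3 libraries beside them. The groups do not overlap for 7 genes and overlap for Tnfrsf1a, Tnfrsf1b and Nfkbia.

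Levels are given in CPM, read counts divided by library size after TMM scaling, which sets the bulk of genes level between libraries. The cytokine itself was scarce. Tnf came to 3.66, 3.43 and 4.54 CPM in the wild-type livers of replicates 1, 2 and 3 (60, 63 and 83 reads), against 2.91, 1.45 and 1.26 CPM in heterozygous ones (50, 24 and 22 reads). All wild-type libraries were higher, but heterozygous replicate 1 lay much closer to them than the other two heterozygous libraries. The means were 3.88 ± 0.59 and 1.88 ± 0.90 CPM (SD, n = 3 each), 2.06-fold lower in the heterozygous livers (log2 fold change -1.04 ± 0.34 SE, 95% CI -1.81 to -0.28, edgeR adjusted p = 0.203). With 1 library left out the log2 fold change ran from -1.50 (without heterozygous replicate 1) to -0.82 (without heterozygous replicate 3).

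Neither receptor gene separated the groups. Tnfrsf1a, the gene for TNFR1, the receptor on most cells that can start both NF-κB signalling and cell death, measured 186, 98.2 and 104 CPM in the wild-type livers, replicates 1 to 3, against 74.2, 105 and 76.6 CPM in heterozygous ones. Wild-type replicate 1 was far above the rest, and heterozygous replicate 2 reached the level of the other two wild-type libraries, so the groups overlapped. Its log2 fold change was -0.60 ± 0.27 (95% CI -1.24 to 0.04, edgeR adjusted p = 0.42), and -0.23 without wild-type replicate 1. With heterozygous replicate 2 left out as well it was -0.41 (edgeR adjusted p = 0.189).

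Tnfrsf1b, the gene for TNFR2, the receptor prominent on leukocytes and endothelium, was at 94.97, 69.4 and 61.7 CPM in wild-type against 71.5, 112 and 54.8 CPM in heterozygous replicates. The highest library was heterozygous and so was the lowest. The log2 fold change of 0.07 ± 0.28 had an interval of -0.60 to 0.75 (edgeR adjusted p = 0.96), and it was negative without wild-type replicate 3 (-0.05) or heterozygous replicate 2 (-0.25). Tnfrsf1b reads per Tnfrsf1a read came to 0.511, 0.707 and 0.59 in wild-type and 0.963, 1.06 and 0.716 in heterozygous livers. Every heterozygous ratio was the higher, with means of 0.603 ± 0.0983 and 0.914 ± 0.178 (SD, n = 3 each, exact permutation two-sided p = 0.1, the smallest that 3 against 3 allows, and 0.15 adjusted over 3 ratios chosen after the values were seen).

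Both receptor genes were highest, within each group, in wild-type replicate 1 and heterozygous replicate 2. Acute phase proteins, which hepatocytes make in inflammation, were highest in those libraries of each group too, with a mean log2 CPM of 10.71 in wild-type replicate 1 against 8.99 and 9.37 in the other two, and of 9.15 in heterozygous replicate 2 against 8.31 and 8.44. This list of 16 genes, all tested, was added after the data were seen, 0 of its genes passed the threshold, and its part in the receptor values was not tested.

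**Figure D2:**
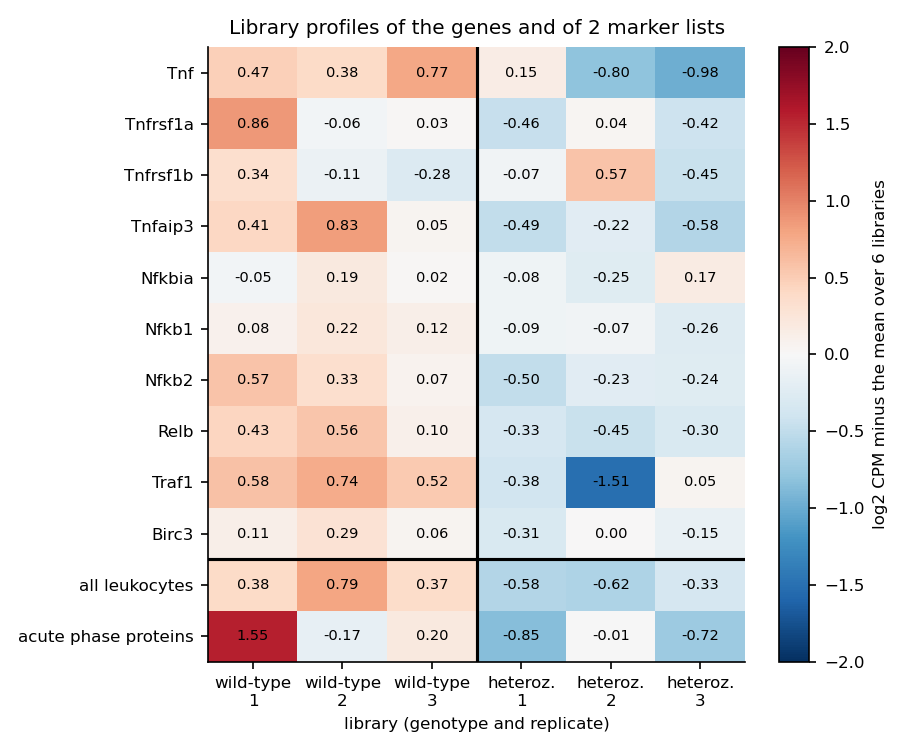
Log2 CPM of each gene minus its own mean over the 6 libraries (colour and printed value, red higher and blue lower), with the mean over all leukocyte markers and over acute phase proteins in the lowest 2 rows. Tnfaip3, Nfkbia, Nfkb1, Relb, Traf1, Birc3 and the leukocyte markers are highest in wild-type replicate 2, Tnfrsf1a, Nfkb2 and the acute phase proteins in wild-type replicate 1, Tnf in wild-type replicate 3 and Tnfrsf1b in heterozygous replicate 2.

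Among the NF-κB subunit genes, the pair of the slower branch had the largest fold differences. Nfkb2, which encodes p100 and its product p52, measured 24.3, 20.6 and 17.1 CPM in wild-type against 11.5, 13.9 and 13.8 CPM in heterozygous libraries. All wild-type libraries lay above all heterozygous ones, and the 1.58-fold lower mean (20.7 ± 3.61 against 13.1 ± 1.34 CPM, SD, n = 3 each) gave a log2 fold change of -0.66 ± 0.16 (95% CI -1.02 to -0.30, edgeR adjusted p = 0.0992, the smallest of the 10; DESeq2 adjusted p = 0.0312). In the annotation, exons of Psd and AC114539.1 on the opposite strand overlap those of Nfkb2, so its count depends on a strand setting that is not given in the sources used here.

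Relb, the partner of p52, was at 8.23, 9.03 and 6.57 CPM in wild-type against 4.83, 4.42 and 4.93 CPM in heterozygous libraries. The heterozygous libraries lay close together, with means of 7.94 ± 1.26 and 4.73 ± 0.27 CPM (SD, n = 3 each), 1.68-fold lower (log2 fold change -0.75 ± 0.19, edgeR adjusted p = 0.114, DESeq2 adjusted p = 0.0445).

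Nfkb1, which encodes p105 and the p50 subunit of the classical dimer, had the smallest. It stood at 33.9, 37.3 and 34.97 CPM in wild-type against 30.3, 30.6 and 26.8 CPM in heterozygous libraries, 1.21-fold lower without overlap (log2 fold change -0.28 ± 0.11, edgeR adjusted p = 0.302). Nfkb2 reads per Nfkb1 read overlapped between the groups, at 0.586 ± 0.118 in wild-type and 0.45 ± 0.0672 in heterozygous livers (SD, n = 3 each, exact permutation two-sided p = 0.2, also when adjusted over the 3 ratios).

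The last 4 genes feed back on the pathway. Nfkbia, whose product IκBα holds NF-κB in the cytoplasm, had the smallest fold difference of the 4, at 58.6, 69.2 and 61.6 CPM in wild-type against 57.4, 50.9 and 68.3 CPM in heterozygous livers. Its groups overlapped, and the log2 fold change of -0.10 ± 0.13 had an interval of -0.40 to 0.20 (edgeR adjusted p = 0.839), so these libraries cannot place it on either side of 0.

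Tnfaip3 encodes A20, the ubiquitin-editing enzyme that ends signalling at the TNF receptor. It measured 11.0, 14.7 and 8.54 CPM in wild-type against 5.82, 7.03 and 5.45 CPM in heterozygous libraries. The groups did not meet, with means of 11.4 ± 3.10 and 6.10 ± 0.82 CPM (SD, n = 3 each), 1.87-fold lower (log2 fold change -0.90 ± 0.22, 95% CI -1.41 to -0.40, edgeR adjusted p = 0.109). DESeq2 placed it past the threshold (log2 fold change -0.90, adjusted p = 0.017), and over all 15 alternative fits the adjusted p ran from 0.017 to 0.359. Tnfaip3 reads per Nfkbia read were 0.187, 0.212 and 0.139 in wild-type and 0.102, 0.138 and 0.0798 in heterozygous livers, every one of the latter lower (exact permutation two-sided p = 0.1, the smallest possible at n = 3 each; 0.15 adjusted over 3 ratios).

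Traf1, an adaptor of TNF receptor complexes found mainly in lymphoid and activated cells, had the largest fold difference of the 10 with all 6 libraries. It was at 4.51, 5.06 and 4.32 CPM in wild-type (74, 93 and 79 reads) and at 2.27, 0.969 and 3.10 CPM in heterozygous livers (39, 16 and 54 reads). Heterozygous replicate 2 was the lowest by far. The means of 4.63 ± 0.38 and 2.11 ± 1.07 CPM (SD, n = 3 each) differed 2.18-fold (log2 fold change -1.13 ± 0.36, edgeR adjusted p = 0.197), and the log2 fold change was -0.78 without heterozygous replicate 2. In that fit Tnfaip3 (-1.01) and Tnf (-0.89) were further from 0, and Tnf was also further without heterozygous replicate 1 (-1.50 against -1.17 for Traf1) or wild-type replicate 2 (-1.12 against -1.05).

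Birc3 encodes cIAP2, a ubiquitin ligase recruited with the TRAF proteins. It measured 16.4, 18.6 and 15.8 CPM in wild-type against 12.2, 15.1 and 13.6 CPM in heterozygous libraries. The groups missed each other narrowly, and the log2 fold change of -0.31 ± 0.14 ended just short of 0 (95% CI -0.62 to -0.0024, edgeR adjusted p = 0.376).

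**Figure D3:**
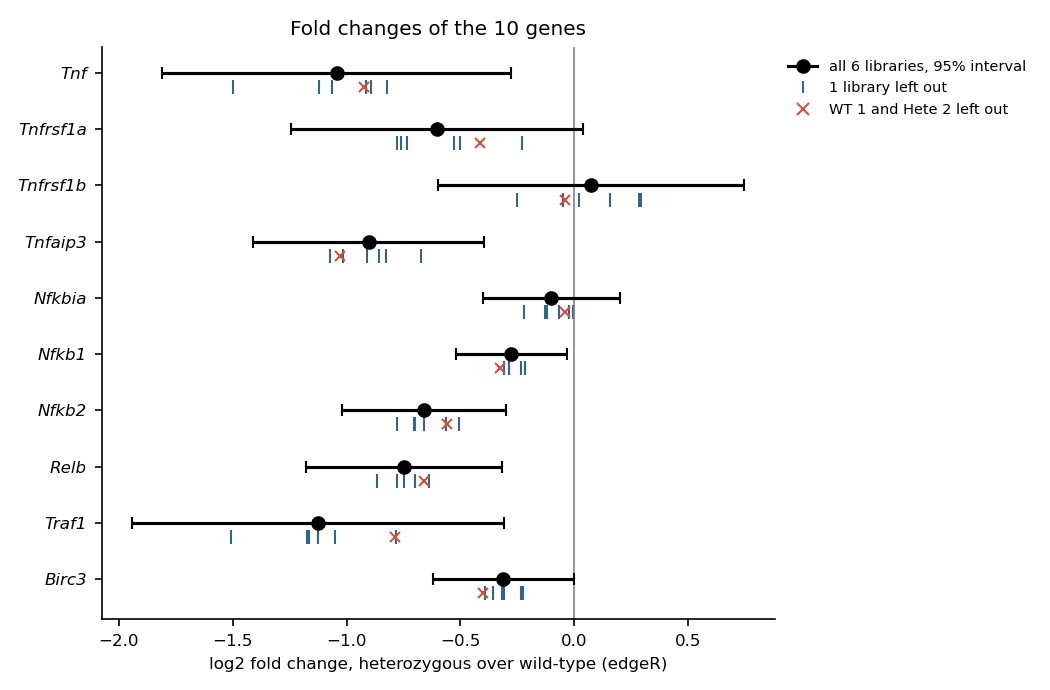
Log2 fold change of each gene, heterozygous over wild-type, from edgeR with all 6 libraries (points, bars are 95% intervals for each gene alone) and with libraries left out (ticks for 1 library, crosses for wild-type replicate 1 with heterozygous replicate 2). Tnfrsf1b is the gene whose values fall on both sides of 0, and the other 9 stay negative in every fit shown.

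Levels were compared between genes per kilobase of annotated exon (GENCODE M21, all exons of a gene joined). In wild-type livers Tnfrsf1a was the highest at 49.96 ± 18.8 CPM per kb (SD, n = 3), followed by Nfkbia at 39.2 ± 3.38, whose libraries overlapped with it, and by Tnfrsf1b at 19.7 ± 4.57. Nfkb2 (4.51 ± 0.79), Birc3 (3.38 ± 0.29) and Nfkb1 (2.94 ± 0.14 CPM per kb) came next, with separate ranges. The order of these genes rests on the length used, 4584 bases for Nfkb2, 5009 for Birc3 and 12061 for Nfkb1. In CPM without that division Nfkb1 (35.4 ± 1.75) stood above Nfkb2 (20.7 ± 3.61) and Birc3 (16.9 ± 1.45). Which transcripts these livers made was not tested. Tnf (2.37 ± 0.36), Relb (2.04 ± 0.32) and Tnfaip3 (1.58 ± 0.43 CPM per kb) overlapped with their neighbours in this order, and Traf1 was the lowest at 0.525 ± 0.043. The order in heterozygous livers was the same but for Nfkbia, which at 36.6 ± 5.45 CPM per kb stood above Tnfrsf1a (32.9 ± 6.63), and Relb (1.22 ± 0.07), which stood above Tnf (1.15 ± 0.55), each pair with overlapping libraries.

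The genes whose library profiles came closest to those of Traf1, Tnf and Tnfaip3, which had the largest differences of the 10 with all 6 libraries, were looked up among 12154 tested genes whose mean log2 CPM was 0 or more. Likeness was the root mean square difference of the mean-centred log2 CPM over 6 libraries. Closest to Traf1 were Ifi209 (0.102), Tmem273 (0.127) and Tnfaip8l2 (0.138). For Tnf the nearest genes were Mill2 (0.216), Ccr7 (0.255) and Epsti1 (0.271), and for Tnfaip3 they were Spn (0.066), Tlr2 (0.0813) and Ipcef1 (0.0857). Spn, Tlr2 and Ccr7 encode surface proteins of leukocytes, namely CD43, a pattern receptor for bacterial lipoproteins and a chemokine receptor. The remaining nearest genes, those of Traf1 among them, were not assigned to a cell type here.

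Further genes of the pathway were read from lists that exclude the 10. Of 17 other TNF family ligand genes, 15 were in the table and 6 were tested, 0 passed the edgeR threshold (2 lower at an unadjusted p under 0.05, 0 calls in DESeq2 and limma-voom) and all 6 fold changes were negative, as were 49% over all tested genes (median log2 fold change -0.63). Tnfsf13b, the gene for the B cell survival factor BAFF, measured 1.69 ± 0.09 CPM in wild-type against 0.504 ± 0.410 CPM in heterozygous livers (log2 fold change -1.73 ± 0.50, edgeR adjusted p = 0.152). Ltb, which encodes lymphotoxin β, the ligand chain that drives the slower branch, stood at 4.33 ± 0.60 and 2.24 ± 0.88 CPM (edgeR adjusted p = 0.208), and Eda at 2.85 ± 0.89 and 1.80 ± 0.41 CPM (edgeR adjusted p = 0.443; SD, n = 3 each).

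Of 23 other TNF family receptor genes 17 were tested, with a median log2 fold change of -0.51. Past the threshold were 1 lower and 0 higher, where 0.582% of all tested genes passed. The one was Tnfrsf21, the gene for death receptor 6, which fell 2.21-fold, from 18.0, 15.2 and 14.3 CPM in wild-type to 6.23, 8.18 and 7.05 CPM in heterozygous libraries (log2 fold change -1.15 ± 0.16, edgeR adjusted p = 0.0337). Its groups were far apart, but the call was lost in each of the 6 fits without 1 library. Tnfrsf11b, whose product osteoprotegerin is a decoy receptor, was at 4.34 ± 0.09 and 2.27 ± 0.33 CPM (edgeR adjusted p = 0.0971). Cd40, the receptor by which T cells activate antigen-presenting cells, was at 2.63 ± 0.65 and 1.09 ± 0.19 CPM (edgeR adjusted p = 0.105; SD, n = 3 each).

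By its medians, the machinery between receptor and nucleus was close to level. All 24 genes of TNF shedding and the receptor complex were tested, 0 passed in edgeR (2 lower and 0 higher at an unadjusted p under 0.05), and their median log2 fold change was -0.04 with single values between -0.44 and 0.21. The smallest p-values belonged to Rhbdf2, whose product iRhom2 brings the TNF-shedding protease to the surface of macrophages (25.7 ± 2.45 and 18.9 ± 1.54 CPM, edgeR adjusted p = 0.142), to Ripk1, the kinase scaffold of the receptor complex (33.0 ± 3.60 and 24.5 ± 2.14 CPM, edgeR adjusted p = 0.153), and to Frmd8, a partner of iRhom proteins (23.3 ± 3.08 and 19.2 ± 1.08 CPM, edgeR adjusted p = 0.408; SD, n = 3 each).

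Of the 9 IKK and other NF-κB subunit genes, all tested, 0 passed in edgeR (1 lower and 1 higher at an unadjusted p under 0.05), with a median log2 fold change of -0.07. Single values ran from -0.60 for Map3k14, named as the lowest (edgeR adjusted p = 0.413), to 0.31 for Ikbkg, with 6 negative and 3 positive. Ikbke measured 43.9 ± 5.73 and 33.5 ± 1.44 CPM (edgeR adjusted p = 0.185), while the IKK subunit genes Ikbkg (47.9 ± 3.41 and 59.4 ± 6.71 CPM, edgeR adjusted p = 0.301) and Chuk (91.1 ± 4.55 and 107 ± 8.95 CPM, edgeR adjusted p = 0.407; SD, n = 3 each) were higher in every heterozygous library. Rela and Rel, named here after their values were seen because they encode the remaining subunits, had log2 fold changes of -0.09 ± 0.15 and 0.11 ± 0.23.

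In the list of other inhibitors of the pathway, as in those of the receptor complex and of the kinases, DESeq2 and limma-voom called 0 genes. Of 20 listed genes 19 were tested, 0 passed in edgeR (5 lower and 0 higher at an unadjusted p under 0.05), 17 fold changes were negative and 2 positive (49% negative over all tested genes), and the median was -0.32. Nfkbie, which encodes the inhibitor IκBε, stood at 6.39 ± 1.41 and 3.65 ± 0.31 CPM (edgeR adjusted p = 0.139). Tnip1, a partner of A20, stood at 19.0 ± 1.72 and 13.3 ± 2.08 CPM (edgeR adjusted p = 0.158), and N4bp1, an inhibitor of NF-κB activation, at 29.1 ± 3.29 and 21.5 ± 1.12 CPM (edgeR adjusted p = 0.14; SD, n = 3 each).

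Other inducible targets of NF-κB had the lowest median of these lists, -0.75 over 28 tested of 34 genes. At an unadjusted edgeR p under 0.05, 12 were lower and 0 higher, against 9.0% of all tested genes lower. In 15 every heterozygous library lay below every wild-type library, against 11.3% of all tested genes. Past the threshold were 4 lower and 0 higher, where 0.582% of all tested genes passed. The 4 were Nos2, Vcam1, Ccl5 and Il1rn. Il1rn, which encodes the antagonist of the interleukin 1 receptor, fell 2.24-fold, from 8.84, 9.14 and 6.51 to 3.61, 3.88 and 3.44 CPM (log2 fold change -1.16 ± 0.20, edgeR adjusted p = 0.0494). The other 3 had log2 fold changes of -3.10 for Nos2, whose enzyme makes nitric oxide in activated macrophages, -1.68 for the leukocyte adhesion molecule Vcam1 and -1.35 for the T cell chemokine Ccl5 (edgeR adjusted p = 0.0308 each). Of the 28 fold changes in this list 23 were negative and 5 positive (49% negative over all tested genes), with log2 values from -3.10 to 0.62. With 1 library left out, 0 genes of this list passed in 4 of the 6 fits, 2 without wild-type replicate 3 and 3 without heterozygous replicate 3. The lists were drawn up with earlier results of these data known, so their counts are no independent evidence of direction.

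**Figure D4:**
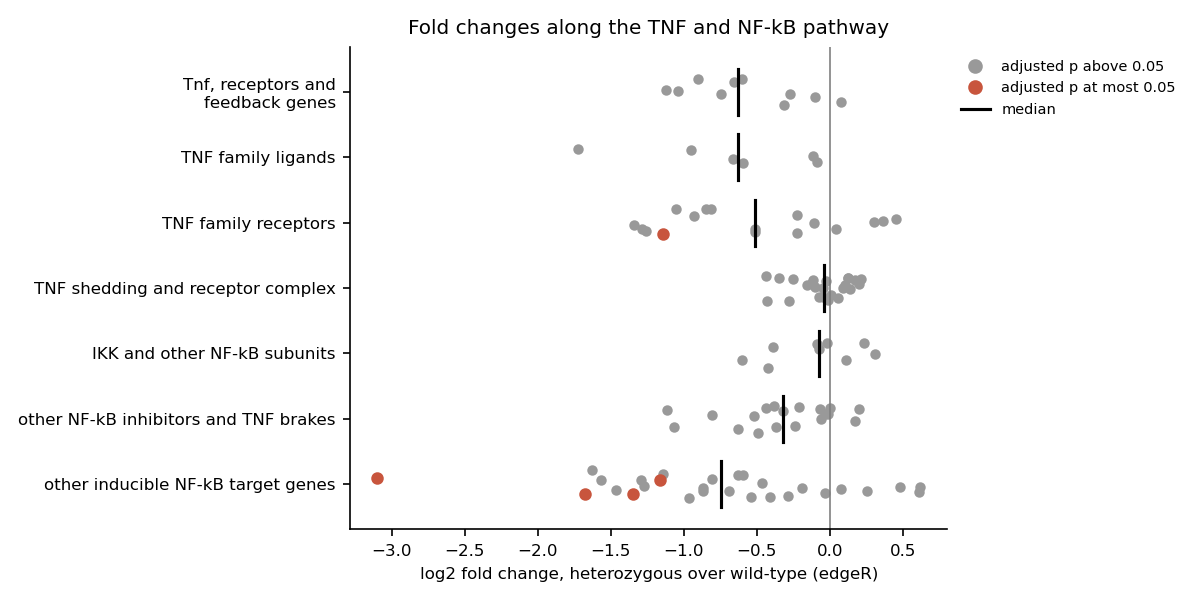
Log2 fold changes, heterozygous over wild-type, of every tested gene in 7 groups of the TNF and NF-κB pathway (points, with random vertical spread), with the median of each group as a line and genes past an edgeR adjusted p of 0.05 in red. Genes for the receptor complex and the kinases lie around 0, between -0.60 and 0.31. The 10 genes at the top, the ligands, receptors, inhibitors and the inducible targets at the bottom spread further to negative values (medians -0.63, -0.63, -0.51, -0.32 and -0.75).

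Sums of leukocyte markers were lower in the heterozygous libraries. General leukocyte markers (6 genes, 4 of them past the threshold, as were 0.582% of all tested genes) summed to between 261 and 361 CPM in wild-type against between 176 and 201 CPM in heterozygous livers. Lcp1, the most abundant of them, made up much of both sums and overlapped between the groups (134 ± 24.8 and 120 ± 12.5 CPM, SD, n = 3 each, log2 fold change -0.16), while the median log2 fold change of the list was -1.12. Markers of monocytes and recruited macrophages summed to 233 to 389 CPM in wild-type against 88.3 to 115 CPM, with 2 of 8 past the threshold. Lyz2 made up most of both sums (262 ± 81.2 and 81.9 ± 11.6 CPM, SD, n = 3 each). All 8 fold changes of that list were negative, with a median log2 value of -1.37. Kupffer cell markers (8 genes, 7 tested, 0 past the threshold) summed to 282 to 503 CPM and 171 to 222 CPM, neutrophil markers (4 of 8 tested, 1 past the threshold) to 22.7 to 29.8 and 7.34 to 12.3 CPM, and dendritic cell markers (6 tested, 0 past the threshold) to 30.4 to 31.2 and 7.93 to 19.6 CPM. None of these ranges met. Among the Kupffer cell markers Cd5l had the widest gap in CPM (181 ± 68.4 and 77.5 ± 13.9 CPM, log2 fold change -1.22), while Slc40a1 overlapped between the groups (108 ± 24.8 and 92.1 ± 11.2 CPM, SD, n = 3 each). The largest fold difference was that of Marco (15.6 ± 13.8 and 1.97 ± 0.80 CPM, SD, n = 3 each, log2 fold change -2.98, edgeR adjusted p = 0.176). Of the tested Kupffer cell markers 6 had negative fold changes and 1, Folr2, a positive one (log2 fold change 0.41). T and NK cell markers (8 tested, 0 past the threshold) reached 18.9 to 29.8 against 12.4 to 15.1 CPM. Hepatocyte markers summed to 98710 to 131300 CPM in wild-type against 108000 to 128600 CPM in heterozygous livers. Of the neutrophil markers Ly6g had 1 read in each wild-type library and 0 in each heterozygous one, too few to compare. The part of cell numbers in the levels of the 10 genes was not tested.

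**Figure D5:**
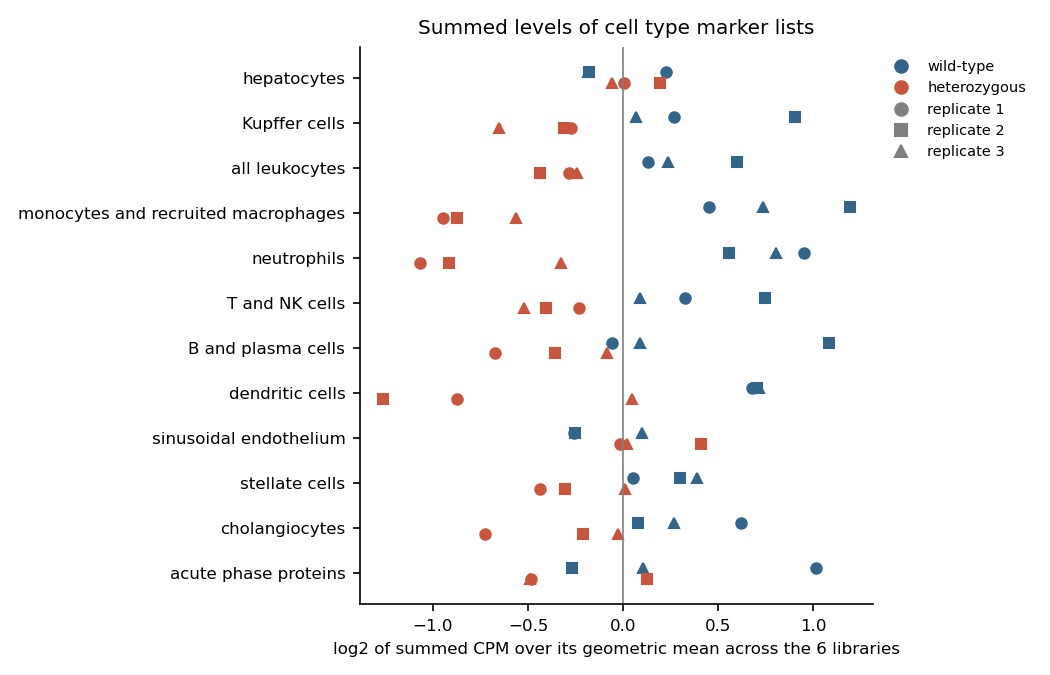
Summed CPM of each marker list in each library, as log2 of its ratio to the geometric mean over the 6 libraries (wild-type blue, heterozygous red, symbols by replicate number). Leukocyte lists are lower in the heterozygous libraries, whereas the hepatocyte list overlaps, with 131300 CPM the highest wild-type and 128600 CPM the highest heterozygous sum.

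Cebpb, the targeted gene, stood at 506, 308 and 340.4 CPM in wild-type against 204, 498 and 269 CPM in heterozygous livers (log2 fold change -0.25 ± 0.37, edgeR adjusted p = 0.864), and since hepatocytes also express it this checks the labels weakly. Clec4f was at 48.6, 38.5 and 5.42 CPM in wild-type against 4.31, 4.97 and 3.90 CPM in heterozygous libraries, wild-type replicate 3 being close to the latter. Library totals were 16895322 to 17750755 counts, every wild-type library being the deeper. At that depth the 10 genes were covered by 16 reads (Traf1, heterozygous replicate 2) to 3044 reads (Tnfrsf1a, wild-type replicate 1).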

How the data were processed

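RNA of 6 liver samples was extracted with TRIzol and 500 ng of it went into TruSeq Stranded mRNA libraries, per the labels' protocols. The submitters' processing notes name Trimmomatic 0.36, HISAT2 2.2.1.0, HTSeq 0.9.1 and the build GRCm39; the annotation, strand setting and filters were not given in the sources used here. What the authors deposited is 1 table of whole-number read counts per gene symbol, not normalized, a unit read from the values.

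Groups come from the sample titles. In R 4.3.3, edgeR 4.0.16 filtered genes (filterByExpr), scaled them by TMM and tested them with glmQLFit and glmQLFTest (robust, no covariates), with Benjamini-Hochberg adjustment over 12706 genes. SEs are the absolute log2 fold change over the square root of F, and CPM values are TMM-scaled (log2 CPM with a prior count of 2). DESeq2 1.42.0, limma-voom (limma 3.58.1) and the fits of the closing section were alternatives. The fits were also run on simulated counts with the same dispersion for every gene, which cannot show how they perform on these libraries. Library pairs differed beyond sampling noise (chi-square per degree of freedom 22.1 to 107.8).

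The 10 genes, lists, rules and tests were chosen with earlier results of these data known. Named were the 10 genes, pathway genes past the threshold, the 3 genes of smallest p in each pathway list, and nearest profiles. The B and plasma cell markers summed to 20.6 to 45.5 CPM in wild-type against 13.4 to 20.2 CPM in heterozygous livers, sinusoidal endothelium to 160 to 206 and 190 to 255 CPM, stellate cells to 216 to 273 and 154 to 210 CPM, and cholangiocytes to 106 to 155 and 60.9 to 98.8 CPM, with 0 genes past the threshold in these 4 lists. Spp1 made up most of the cholangiocyte sums (105 ± 19.3 and 62.7 ± 17.0 CPM), while Krt19 was level (2.375 ± 0.595 and 2.387 ± 0.981 CPM). Col1a1 had the widest gap of the stellate markers (77.9 ± 6.52 and 38 ± 18.8 CPM). Lrat overlapped, with the higher mean in heterozygous livers (21.0 ± 2.50 and 23.1 ± 2.31 CPM, SD, n = 3 each). Tested fold changes were 4 negative and 1 positive for cholangiocytes, 5 and 1 for stellate cells.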

Additional observations from a re-analysis of the deposited data

How the results depend on the processing

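The 10 genes had 3 calls in DESeq2 and 0 in the other 14 alternatives, and their median log2 fold change ran from -0.76 to -0.41 with 1 library left out, -0.41 being the value without wild-type replicate 1. The 7 genes without overlap between the groups were 7 under each of 3 scalings chosen after seeing the data (RLE, upper-quartile, and library totals alone), and leaving a library out cannot lower that count. Tnfrsf1b ran from -0.25 to 0.29 with 1 library left out, at -0.05 without wild-type replicate 3 and -0.25 without heterozygous replicate 2, and was -0.040 with both wild-type replicate 1 and heterozygous replicate 2 left out; the cause was not tested. The other 9 genes kept a negative sign in all 15 alternatives. Over all genes, 74 calls became 37 with upper-quartile scaling, 211 with no filter on low counts, 48 with at least 1 CPM in 3 libraries, 534 in DESeq2, 46 in limma-voom, 20 in the non-robust fit, 4 without both of those libraries, and 0 to 122 with 1 library left out (4, 6 and 20 without wild-type replicates 1, 2 and 3, and 0, 0 and 122 without heterozygous replicates 1, 2 and 3). At an unadjusted edgeR p under 0.05 the fits without heterozygous replicates 1 and 2 still held 798 and 1086 lower genes. Of the other TNF family receptors, DESeq2 called 3, and the non-robust fit, the fit without both libraries and every fit without 1 library called 0. Of the inducible targets DESeq2 called 9, the fit without both libraries 0, and fits without 1 library 0 to 3. All these DESeq2 calls were lower, where DESeq2 called 3.56% of genes lower. Of the ligands, fits without 1 library called 0 to 1, the 1 without heterozygous replicate 3.

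Replicate numbers are shared by the groups, but nothing says that they pair the samples, and same-numbered libraries deviated together with correlations of -0.21, -0.31 and 0.19 (2 of 6 libraries correlated best with their own number). With the number as a replicate block, edgeR called 0 of all genes (1027 lower and 400 higher at an unadjusted p under 0.05), 0 of the 10, 0 receptors and 0 inducible targets, and the median of the 10 was -0.60. Traf1 and Tnf had the fewest reads of the 10, and depth was not separated from the spread between libraries.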
